A study of Mus musculus with 14 samples.

Results

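Tumour tissue from the livers of female Abcb11-/- mice was compared with non-tumour liver of female Abcb11-/- mice, gene by gene. The members are the 6 libraries that the sample labels give to these tissues, 3 tumour and 3 non-tumour, out of 14 libraries in the series. All 6 came from C57BL/6J females aged 52 weeks that carried the Abcb11-/- genotype, so the loss of Abcb11 is shared by both sides of the comparison. Wild-type C57BL/6J females of the same age (n = 2) gave a background level. The remaining libraries, from male wild-type and male knockout liver (n = 3 each), entered the fit to estimate the spread. They also took part in the low-count filter and the scaling. The labels number the tissues 1 to 3 on each side and do not say whether equal numbers mark the same animal, and they give neither the tumour's histology nor which part of Abcb11 was deleted. Levels below are CPM (counts scaled to library size) after TMM scaling, a correction for library composition, and values listed for 3 libraries are in the order 1, 2, 3. P-values set the difference between the groups against the spread of libraries within groups, estimated over all 14 libraries unless stated. They treat libraries of equal number as independent unless a block is named.

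The product of Abcb11 is the transporter through which hepatocytes secrete bile salts into bile. Without it bile salts build up in the liver, and liver tumours are known to arise in mice and in people who lack the pump. Hepatocytes carry out urea synthesis, amino acid breakdown, drug metabolism and bile acid synthesis, and these programmes are divided between cells near the portal vein (periportal) and cells near the central vein (pericentral). Liver tumours of many kinds are known for reduced expression of such programmes and for more lipid synthesis and new vessels. Bulk RNA mixes all cells of a sample, so fewer cells of a type and less RNA per cell cannot be told apart here.

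The 6 libraries held 17139720 to 19480538 counts, and of 54532 genes listed 17874 were tested. Reads on mitochondrially encoded genes made up 29.1% to 33.0% of the counts in the tumours, and 19.1%, 34.2% and 16.7% in non-tumour liver. Libraries of equal number were alike in a score of the daily clock (8 evening genes against 4 morning genes, difference of mean log2 CPM), at 0.67, 2.65 and 4.09 in tumours and 0.18, 3.02 and 4.56 in non-tumour liver. The part of either measure in the results below was not tested beyond the alternatives given for them.

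Abcb11 (ENSMUSG00000027048, GRCm38 chromosome 2, 69238282 to 69342616) stood at 34.3, 23.2 and 18.0 CPM in tumours and at 21.1, 35.9 and 17.9 CPM in non-tumour liver. Wild-type females had 270 and 489 CPM. The knockout tissues overlapped with each other, and all 6 lay below both wild-type libraries. The log2 difference between tumour and non-tumour tissue was 0.01 ± 0.33 (SE; edgeR adjusted p = 1).

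No gene passed the threshold in the comparison of tumour with non-tumour liver. In edgeR's quasi-likelihood test 0 of 17874 genes (0%) had a Benjamini-Hochberg adjusted p under 0.05, and the smallest adjusted p was 0.382. At an unadjusted p under 0.05 there were 1217 genes, 569 higher and 648 lower in tumours. DESeq2 called 27 genes, 14 higher and 13 lower, and limma-voom with quality weights called 0. Genes are therefore described below by their values and by whether the groups overlap, and "higher" and "lower" mean the direction of the fitted difference, not a call. All 3 tumours lay above all 3 non-tumour libraries in 1140 genes (6.38%) and below them in 1366 genes (7.64%). With a difference of at least 2-fold between the group means, the counts were 329 genes (1.84%) above and 538 genes (3.01%) below. Compared within equal numbers, tumours were above in all 3 numbers in 3081 genes (17.2%) and below in all 3 in 3579 genes (20%).

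The tumours were not alike. Among 10277 genes with a mean of at least 5 CPM, tumour 1 and non-tumour 1 were at least 2-fold apart in 250 genes (2.43%), the smallest number among the 15 pairs of libraries. The same count was 830 genes (8.08%) for number 2 and 1319 genes (12.8%) for number 3. Tumours 2 and 3 were 2-fold apart in 524 genes (5.10%), while tumour 1 differed from tumour 2 in 1131 genes and from tumour 3 in 1076. Non-tumour libraries differed from each other in 688 to 1215 genes. Many of the gene list medians below lie farther from 0 in numbers 2 and 3 than in number 1, and most of them are given by number.

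**Figure D1:**
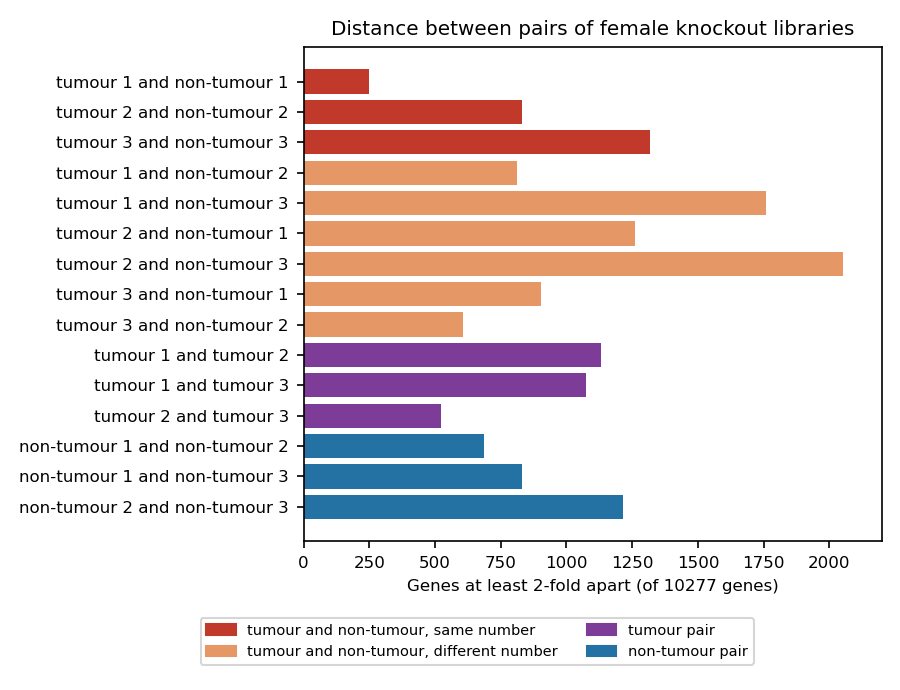
Number of genes at least 2-fold apart (horizontal axis, of 10277 genes with a mean of at least 5 CPM) for each of the 15 pairs of female knockout libraries, coloured by the kind of pair. Tumour 1 and non-tumour 1 are the closest pair (250 genes), and tumour 2 and non-tumour 3 are the farthest (2053 genes).

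Leaving out tumour 1 gave 42 genes past the threshold, 20 higher and 22 lower (edgeR), and leaving out non-tumour 1 gave 2. Leaving out any of the other 4 libraries gave 0. Without both libraries of number 1 there were 20 genes, and 0 without both of number 2 or of number 3. Tumour 1 was at least 2-fold apart from non-tumour 1 in 250 genes, from non-tumour 2 in 811 and from non-tumour 3 in 1758. Non-tumour libraries differed from each other in 688 to 1215 genes. The count of called genes without tumour 1 only describes the remaining libraries. With the number of the female knockout libraries as a replicate block in the fit of 14 libraries, 2 genes passed, both higher in tumours. With the block in a fit of the 6 libraries alone, 0 of 15500 genes passed (edgeR, 2115 at an unadjusted p under 0.05). Cyp4a12a, a fatty acid hydroxylase of male-typical liver expression, stood at 0.309, 3.97 and 4.77 CPM in tumours and at 0, 0.356 and 0.0904 CPM in non-tumour liver (adjusted p = 0.019 with the block). The other was Psapl1, whose level was 242 CPM in tumour 2 and at most 1.67 CPM in the other 5 libraries (adjusted p = 0.00805 with the block). Without the block their adjusted p-values were 0.665 and 0.731 in edgeR. The list of 23 male-biased genes, which includes Cyp4a12a and Mup20, had a median log2 difference of 0, with 11 higher and 10 lower. By number its medians were 0, −0.90 and 0.33.

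**Figure D2:**
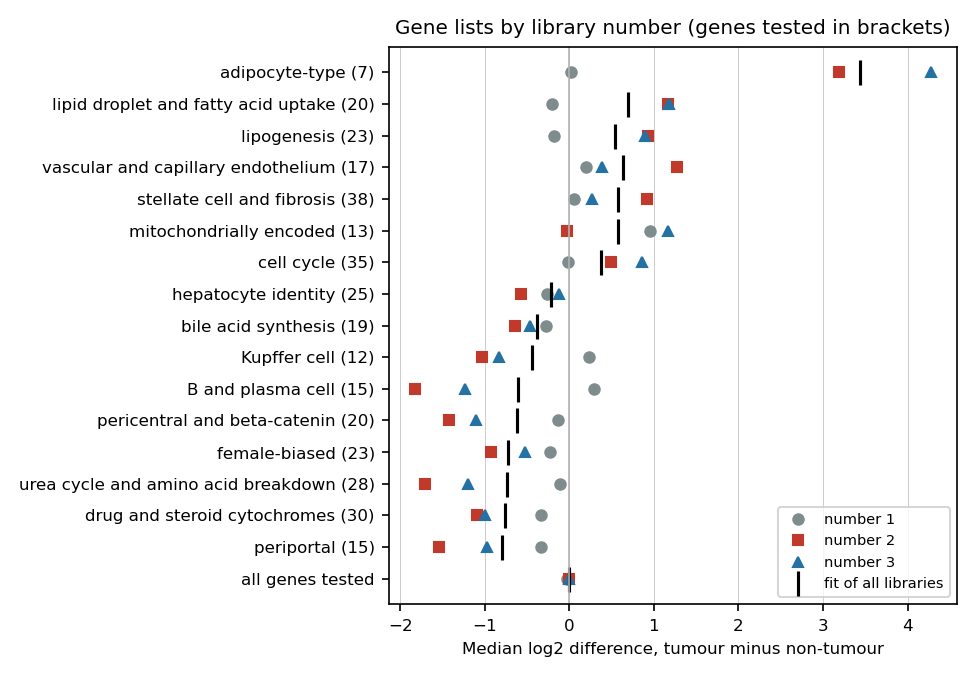
Median log2 difference, tumour minus non-tumour, over the tested genes of 16 gene lists and over all genes (horizontal axis), with a symbol for each library number and a vertical tick for the fit of all libraries. Lipid lists lie to the right and hepatocyte metabolism lists to the left in numbers 2 and 3, while number 1 stays closer to 0 in most lists; the mitochondrially encoded list is near 0 in number 2 instead.

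Genes of lipid storage were among those with the largest differences. Cidec (chromosome 6, 113424634 to 113435760), a protein that enlarges lipid droplets, stood at 17.2, 180 and 189 CPM in tumours and at 17.0, 12.1 and 4.43 CPM in non-tumour liver. Tumours 2 and 3 were more than 10 times above any non-tumour library, and tumour 1 lay just above non-tumour 1. The log2 difference was 3.53 ± 0.76 (SE; edgeR adjusted p = 0.665, DESeq2 adjusted p = 9.16e-05). Apoa4, an apolipoprotein of lipid-rich particles (chromosome 9, 46240696 to 46243459), had 348, 3500 and 2251 CPM in tumours against 347, 52.4 and 40.8 CPM, with 76.6 and 59.4 CPM in wild-type females. Its log2 difference was 3.79 ± 0.97 (SE; edgeR adjusted p = 0.665, DESeq2 adjusted p = 0.027). Fabp4, a fatty acid carrier known from adipocytes and macrophages, had 59.4, 122 and 195 CPM in tumours against 42.1, 13.5 and 21.8 CPM, without overlap. Plin4, a coat protein of lipid droplets, had 136, 162 and 338 CPM in tumours against 89.6, 91.0 and 21.7 CPM, also without overlap.

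Over the 20 genes of the lipid droplet and fatty acid uptake list the median log2 difference was 0.69, beside −0.01 over all genes tested. In that list 16 members were higher and 4 lower, and 7 had an unadjusted p under 0.05, all of them higher. Of its 20 genes 3 lay above all non-tumour libraries, beside 6.38% of all genes tested. Over all 17874 genes tested, 569 were higher at an unadjusted p under 0.05. By number the median differences were −0.21, 1.17 and 1.18, and without both libraries of number 1 the fitted median was 1.57. Several of these genes also mark adipocytes. Of the 11 adipocyte-type markers 7 passed the filter, some of them only through the tumours in which they were high, so their direction is in part fixed by the filter. The medians of these 7 by number were 0.02, 3.19 and 4.28. Cidea, 1 of these 7, is also in the lipid droplet list. It had 0.124, 43.2 and 6.49 CPM in tumours against 0.157, 0.0593 and 0.226 CPM. Its direction in the lipid droplet list may thus also be fixed by the filter. Cfd, a complement factor secreted by adipocytes, had 0.371, 12.9 and 2.59 CPM in tumours against 0.21, 1.31 and 0 CPM. The other 4 markers stayed under 1 CPM in every library. Lep had no count in any of the 6 libraries, Adipoq had 10 counts in tumour 2 and 0 elsewhere, Plin1 had 10 counts in tumour 2 and 2 in non-tumour 3, and Retn had 21 counts over the tumours and 1 over non-tumour liver. The summed level of the marker list was 91.8 to 426 CPM in tumours and 42.8 to 75.2 CPM in non-tumour liver, and most of it came from Cidec and Fabp4. The part of adipocytes in these values was not tested.

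Genes of fatty acid synthesis were higher in tumours 2 and 3 and not in tumour 1. Fasn, the fatty acid synthase, stood at 115, 1812 and 468 CPM in tumours and at 139, 444 and 91.8 CPM in non-tumour liver. Acly, which makes cytosolic acetyl-CoA, had 37.3, 376 and 74.4 CPM against 48.2, 67.0 and 33.9 CPM. Acaca, which makes malonyl-CoA, had 38.1, 312 and 90.3 CPM against 41.7, 70.4 and 31.8 CPM. In each of these genes tumour 1 overlapped with non-tumour liver and tumour 2 was the highest library. Elovl6, an elongase, and Scd1, a desaturase, had log2 differences of 1.99 ± 0.71 and 1.36 ± 0.62 (SE; edgeR adjusted p = 0.665 and 0.731). Of the 23 members of the lipogenesis list 18 were higher and 5 lower, and 8 had an unadjusted p under 0.05, all higher. At that unadjusted p 569 of all 17874 genes tested were higher. Only 1 of the 23 lay above all non-tumour libraries, a share under the 6.38% of all genes tested. The median was 0.54, and by number it was −0.18, 0.94 and 0.89. The 24 genes of cholesterol synthesis had a median of −0.17, with −0.13, −0.68 and 0.48 by number and no member under an unadjusted p of 0.05. That median had no steady sign and ran from −0.55 to 0.45 over the alternatives tried.

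**Figure D3:**
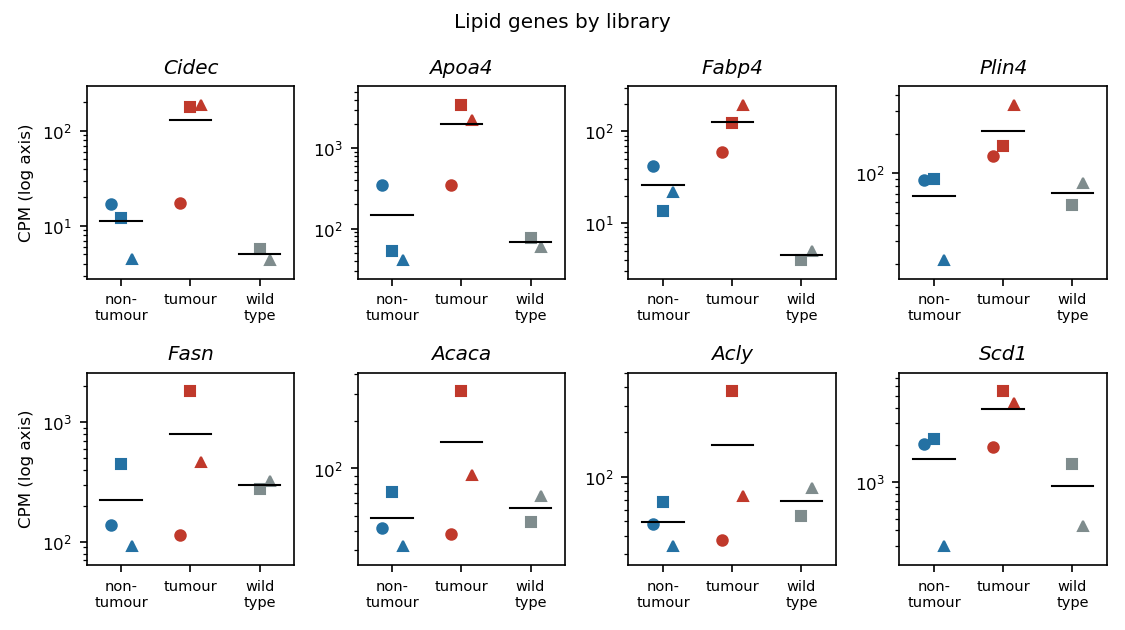
CPM (log axis) of 8 lipid genes in each non-tumour, tumour and wild-type female library, with circles, squares and triangles for numbers 1, 2 and 3 and lines for group means. Tumours 2 and 3 lie above the non-tumour libraries in all 8 genes, and tumour 1 is the lowest tumour in each; wild-type libraries carry numbers 2 and 3 alone.

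The promoters of these genes are shown because the list's members were high together in tumour 2. In RefSeq's GRCm38.p6 table, windows of 300 bases (from 250 before the start to 50 after it) were found for 18 of the 23 lipogenesis genes, in 24 windows. The letters CCAAT, a box bound by the factor NF-Y, were searched on both strands and are in capitals in the windows of Fasn (chr11:120824498-120824797, minus strand) and Acly (chr11:100527951-100528250, minus strand), written 5′ to 3′ along the gene. In Fasn the last pair of matches, on opposite strands, overlap.
Fasn: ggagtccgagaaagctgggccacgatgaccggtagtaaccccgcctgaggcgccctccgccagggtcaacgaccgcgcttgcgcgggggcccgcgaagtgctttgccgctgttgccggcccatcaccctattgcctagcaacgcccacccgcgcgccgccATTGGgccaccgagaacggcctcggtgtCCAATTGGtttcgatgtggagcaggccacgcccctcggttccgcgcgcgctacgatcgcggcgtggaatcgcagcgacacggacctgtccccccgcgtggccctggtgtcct
Acly: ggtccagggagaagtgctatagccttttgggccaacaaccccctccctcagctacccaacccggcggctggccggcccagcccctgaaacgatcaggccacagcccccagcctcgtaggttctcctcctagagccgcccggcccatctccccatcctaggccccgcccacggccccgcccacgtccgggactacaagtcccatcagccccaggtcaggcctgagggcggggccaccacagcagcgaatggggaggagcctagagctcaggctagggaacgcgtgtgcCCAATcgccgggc
CCAAT was in 13 of the 24 windows (54.2%) and in 37.4% of all 32851 windows. The E-box CACGTG was in 3 of 24 (12.5%) and in 7.15% of all. TCACNCCAC, a sterol response element, was in 1 of 24 (4.17%) and in 1.24% of all. The windows of Acaca and Elovl6, also named above, held no match to any of these motifs, and no window was found for Scd1. These matches describe letters in the windows and were not tested.

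Genes of nitrogen and amino acid metabolism were lower in tumours, again mainly in numbers 2 and 3. Cps1 (chromosome 1, 67123026 to 67231259), which starts the urea cycle, had 612, 100.1 and 298 CPM in tumours against 977, 614 and 2132 CPM in non-tumour liver. The groups did not overlap, although tumour 1 was within 2 CPM of non-tumour 2. The log2 difference was −1.88 ± 0.61 (SE; edgeR adjusted p = 0.665). Tdo2, which breaks down tryptophan, had 118, 66.8 and 111 CPM against 197, 210 and 747 CPM. Hal, which breaks down histidine, had 220, 47.6 and 223 CPM against 309, 283 and 793 CPM. Non-tumour 3 was the highest library in all of these genes. Of the 28 genes in the urea cycle and amino acid list 27 were lower and 1 higher, and 7 had an unadjusted p under 0.05, all lower. Of these 28 genes 7 lay below all non-tumour libraries, beside 7.64% of all genes tested. Over all 17874 genes tested, 648 were lower at an unadjusted p under 0.05. The median was −0.74, and by number it was −0.11, −1.70 and −1.19.

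The periportal list, which shares members such as Cps1, Hal and Ass1 with the list just given, had 12 of 15 genes lower and a median of −0.79, with −0.33, −1.55 and −0.97 by number. Cyp2f2, a periportal cytochrome, went the other way, with 372.5 CPM in tumour 3 and 21.2 to 94.4 CPM in the other 5 libraries. The pericentral list had 18 of 20 genes lower and a median of −0.62, with −0.13, −1.43 and −1.10 by number. Cyp2e1, an alcohol- and drug-metabolizing cytochrome of pericentral cells, had 1147, 388 and 347 CPM in tumours against 1761, 1515 and 3241 CPM. Glul, glutamine synthetase of the cells next to the central vein, had 657, 185 and 66.4 CPM against 903, 403 and 413 CPM, with overlap through tumour 1. Oat, another pericentral enzyme, had 850, 77.2 and 61.2 CPM against 1190, 738 and 777 CPM. Glul and Oat were lower in all 3 numbers. Both zones were thus lower in tumours 2 and 3.

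**Figure D4:**
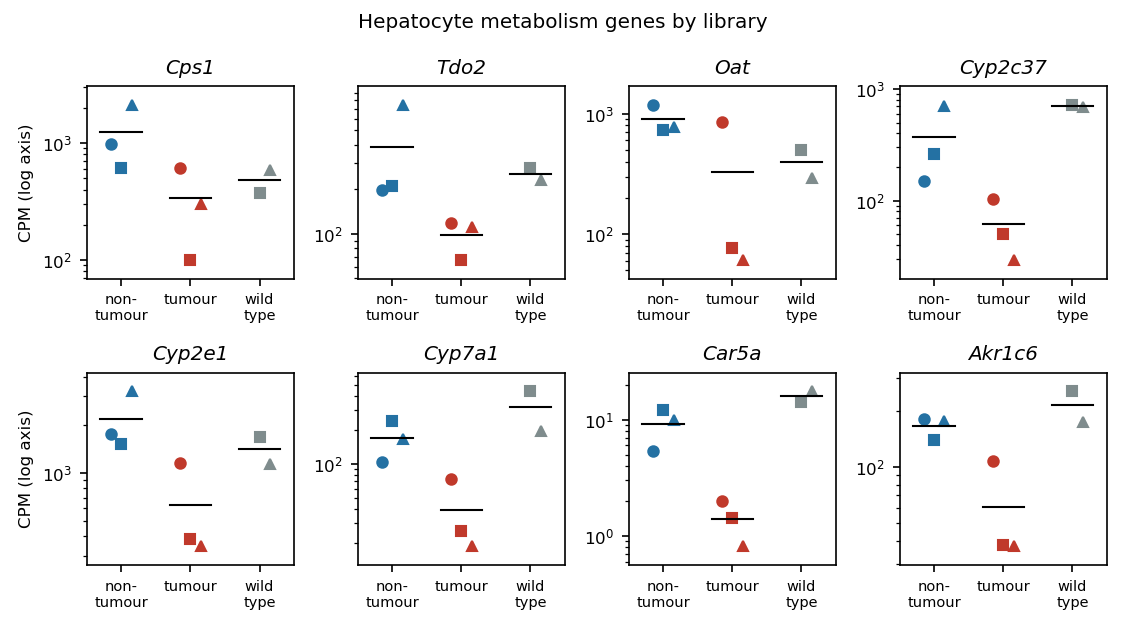
CPM (log axis) of 8 genes of hepatocyte metabolism in each non-tumour, tumour and wild-type female library, with circles, squares and triangles for numbers 1, 2 and 3 and lines for group means. Tumours 2 and 3 lie below all non-tumour libraries in the 8 genes, and tumour 1 (circle) is the highest tumour in each.

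Several cytochromes of drug and steroid metabolism were lower in tumours. Cyp2c37 (chromosome 19, 39992424 to 40012243) had 104, 50.1 and 29.4 CPM in tumours against 151, 262 and 710 CPM in non-tumour liver, and 726 and 696 CPM in wild-type females. Its log2 difference was −2.62 ± 0.54 (SE; edgeR adjusted p = 0.541, DESeq2 adjusted p = 0.000577). Cyp2a5 had 847, 385 and 698 CPM against 880, 1874 and 7148 CPM, so that the group difference rested largely on non-tumour 2 and 3. Of the 30 genes in the drug and steroid list 24 were lower, 10 of them at an unadjusted p under 0.05. At that unadjusted p 648 of all 17874 genes tested were lower. In the drug and steroid list 12 genes lay below all non-tumour libraries, beside 7.64% of all genes tested. The median was −0.76, with −0.33, −1.09 and −1.001 by number. The genes of the cytochrome 2c family are close copies of each other, so counts may be split between them.

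Bile acid synthesis was lower at its first step. Cyp7a1, whose enzyme limits the rate of the classical pathway, had 72.9, 25.6 and 18.7 CPM in tumours against 104, 236 and 167 CPM, without overlap. The log2 difference was −2.11 ± 0.58 (SE; edgeR adjusted p = 0.665). Cyp7b1, of the alternative pathway, had 4.33, 2.01 and 1.06 CPM against 8.03, 6.11 and 10.99 CPM. Cyp8b1, which sets the share of cholic acid, had 35.4, 2.82 and 2.03 CPM against 39.5, 6.94 and 26.7 CPM, with overlap between the groups but lower in all 3 numbers. Of 19 synthesis genes 14 were lower, 6 with an unadjusted p under 0.05, and the median was −0.39, with −0.28, −0.64 and −0.47 by number. Below all non-tumour libraries lay 5 of the 19, beside 7.64% of all genes tested. At that unadjusted p 648 of all 17874 genes tested were lower. Among 19 transport genes, Slco1b2, an uptake carrier, had 152, 165 and 135 CPM against 196, 247 and 242 CPM. The transport list as a whole had a median of −0.22, with 12 genes lower and 7 higher, and −0.01, −0.59 and −0.18 by number. Of its 19 genes 2 lay above all non-tumour libraries and 2 below, beside 6.38% and 7.64% of all genes tested.

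The sulfotransferases Sult2a1, Sult2a5 and Sult1e1, the mitochondrial carbonic anhydrase Car5a and the hepcidin gene Hamp2 were also among the largest differences on the lower side, with Eif4ebp3, Ankrd55 and Cyp2c39. Car5a had 1.98, 1.43 and 0.811 CPM in tumours against 5.35, 12.0 and 9.99 CPM, a log2 difference of −2.70 ± 0.53 (SE; edgeR adjusted p = 0.456, DESeq2 adjusted p = 0.00118). Hamp2 had 4.76, 6.41 and 0.507 CPM against 15.9, 106 and 27.6 CPM. Hamp, the main hepcidin gene and the hormone that limits iron uptake, had 2080, 144 and 74.7 CPM against 2511, 1092 and 3120 CPM. It was named after its values were seen, because it was among the genes past the threshold without tumour 1. On the higher side the remaining genes by size were Sprr1a, Dnajb13, Slc39a5, Hcn3, Sdcbp2, Rasl10b, Zfp992, Cgref1 and S100a11. S100a11, a calcium-binding protein, had 55.7, 142 and 230 CPM in tumours against 45.3, 42.7 and 22.5 CPM.

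The genes with the smallest p-values were apart in the same direction in all 3 numbers, tumour 1 included. Klf9, a transcription factor induced by glucocorticoids, had 3.21, 3.15 and 4.26 CPM in tumours against 10.6, 9.73 and 21.6 CPM in non-tumour liver, and 15.4 and 27.9 CPM in wild-type females. Its log2 difference was −1.98 ± 0.34 (SE; edgeR adjusted p = 0.382, DESeq2 adjusted p = 0.000264). Fubp1, which binds single-stranded DNA upstream of Myc, had 20.3, 18.6 and 25.8 CPM against 44.9, 46.5 and 57.02 CPM. Arsa, a lysosomal sulfatase, was higher, with 18.6, 33.0 and 40.9 CPM against 14.1, 9.20 and 5.70 CPM. Fam124a had 13.8, 26.0 and 19.6 CPM against 8.45, 9.49 and 5.83 CPM. None of these groups overlapped.

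Vascular endothelial and matrix genes were higher in tumours. Tie1, an endothelial receptor, had 13.1, 33.9 and 16.8 CPM in tumours against 8.50, 12.0 and 9.77 CPM, and Vwf, a clotting factor stored in endothelium, had 11.3, 13.4 and 18.2 CPM against 7.19, 4.98 and 6.60 CPM. Both were without overlap. Of 17 tested vascular endothelium markers 16 were higher, with a median of 0.64 and 0.19, 1.27 and 0.39 by number. Stab1, a scavenger receptor of sinusoidal endothelium, had 142, 142 and 140 CPM against 91.7, 91.1 and 66.8 CPM. The 15 sinusoidal markers as a list had a median of 0.11, with 0.31, 0.13 and −0.09 by number. Of these 15 markers 2 lay above all non-tumour libraries, beside 6.38% of all genes tested. Col4a2, of the basement membrane, had 22.5, 80.6 and 58.0 CPM against 16.9, 21.8 and 17.6 CPM. Of 38 stellate cell and fibrosis genes 27 were higher and 11 lower, with a median of 0.58 that was 0.24 without both libraries of number 2. By number it was 0.05, 0.92 and 0.27. Smooth muscle genes were high in tumour 2: Actg2 stood at 30.5 CPM there and at most at 0.890 CPM in the other 5 libraries, and Acta2 at 85.9 CPM against at most 13.0 CPM.

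Markers of B cells and plasma cells were low in tumours 2 and 3. Igkc, the kappa light chain, had 368, 52.2 and 47.1 CPM in tumours against 319, 185 and 301 CPM. The list of 15 genes had a median of −0.60, with 0.30, −1.82 and −1.23 by number, and no member had an unadjusted p under 0.05. Immunoglobulin variable genes, a class singled out after values were seen, were lower in 47 of 50 tested genes. Of these 50 genes 21 lay below all non-tumour libraries, beside 7.64% of all genes tested. The summed level of the variable genes was 23.4, 3.35 and 4.06 CPM in tumours and 46.1, 15.8 and 60.2 CPM in non-tumour liver. Most single members were thus near the floor in tumours 2 and 3. Some may have passed the filter only through libraries in which they were high. The direction of the variable genes and their count below all may therefore be in part fixed by the filter. Of 11 tested immunoglobulin constant genes 10 were lower, and 1 lay below all non-tumour libraries. Some variable genes are close copies of each other, so single members are uncertain. Kupffer cell markers had a median of −0.44, at 0.24, −1.03 and −0.83 by number. Among 25 hepatocyte identity genes 17 were lower, and the median was −0.21, with −0.26, −0.57 and −0.13 by number. It was −0.44 without tumour 1, and its highest value over the alternatives was 0.0046.

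Of 35 cell cycle genes 28 were higher and 7 lower, with a median of 0.38 and none under an unadjusted p of 0.05. By number the medians were −0.02, 0.49 and 0.86, and over the alternatives the fitted median ran from 0.15 to 1.02. Mki67, a marker of dividing cells, had 14.6, 25.6 and 10.6 CPM in tumours against 12.5, 8.90 and 2.58 CPM. Afp, the fetal albumin-like protein used as a liver tumour marker, was at 2.91, 1.91 and 3.55 CPM in tumours, at 3.31, 5.04 and 3.93 CPM in non-tumour liver, and at 15.3 and 16.6 CPM in wild-type females. The liver tumour and oncofetal list, with 18 of 24 genes tested, had a median of −0.10, which ran from −0.26 to 0.15 over the alternatives and was −0.22, 0.69 and 0.01 by number. Glycolysis genes were mixed in direction, with 15 of 25 higher and medians of −0.18, 0.54 and −0.06 by number. Of these 25 genes 5 lay above all non-tumour libraries and 0 below, beside 6.38% and 7.64% of all genes tested. Hk2, a hexokinase that is low in normal hepatocytes, had 2.91, 32.8 and 17.7 CPM against 3.52, 6.41 and 2.31 CPM, and Gpi1, the next enzyme, had 241, 547 and 325 CPM against 227, 173 and 203 CPM.

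The 13 mitochondrially encoded genes were all higher, with a median of 0.57, and 0.95, −0.03 and 1.16 by number. This list follows the mitochondrial read share given above, which was low in non-tumour 1 and 3, and with these genes left out of the scaling the count of called genes was also 0.

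Some genes were high in a single library. With a level of at least 20 CPM and at least 10 times that of the next of the 6 libraries, there were 5 such genes in tumour 2, 2 in tumour 3, 1 in non-tumour 3 and 0 in tumour 1, non-tumour 1 and non-tumour 2. In tumour 2 they were Psapl1, Dmbt1, a secreted mucosal protein (78.3 CPM, next 0.367 CPM), Actg2, Ptges, a prostaglandin E synthase (28.7 CPM, next 2.53 CPM), and Slc39a5, a zinc transporter (20.1 CPM, next 1.92 CPM). In tumour 3 they were Mup20, a major urinary protein of male-typical expression (621 CPM, next 30.1 CPM), and Mup-ps19, a pseudogene of that family (28.2 CPM, next 0.335 CPM), and reads could be shared between these copies. In non-tumour 3 it was Slc4a9, an ion exchanger (572 CPM, next 27.3 CPM).

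Expression by chromosome showed no large shift in any tumour. Medians over the genes of each autosome, relative to the non-tumour mean and to all autosomal genes, ran from −0.14 to 0.10 (log2) in the 3 tumours and from −0.09 to 0.10 in the non-tumour libraries. Small gains or losses, or ones in part of the cells, were not detectable in this measure.

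Per length of transcript, the deposited FPKM values gave the levels of genes beside each other. In tumours the mean FPKM was 1063 for Apoa4, 765 for Scd1, 69.4 for Fasn and 57 for Cps1, and in non-tumour liver it was 75.4, 294, 19.3 and 209. Tumour 2 alone put the mean of Fasn above that of Cps1: Fasn had an FPKM of 9.82, 158 and 40.3 in the tumours and Cps1 103, 17.2 and 50.6.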

How the data were processed

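Liver RNA of 14 libraries was sequenced. Per the submitters' processing notes, reads were aligned with HISAT2 2.0.5 to GRCm38 and counted with featureCounts 1.5.0-p3; the strand setting is not given in the sources used here, so overlapping and antisense genes are uncertain. The authors deposited whole fragment counts without scaling. The authors also deposited FPKM, scaled to gene length and a library total that differs from the count sum; these were used only to set genes beside each other.

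From the counts, 27 symbols that had become dates were repaired. One fit of all 14 libraries was made in edgeR 4.0.16 (R 4.3.3): TMM, filterByExpr on 5 groups, robust quasi-likelihood F test, tumour minus non-tumour, 2-sided, Benjamini-Hochberg adjusted over 17874 genes, threshold 0.05. Replicates varied with a common biological coefficient of 0.442. The SE is the log2 difference divided by the square root of F. DESeq2 1.42.0 and limma 3.58.1 gave alternatives, with other scalings, filters and libraries left out. The fit was tested on simulated data.

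Lists (45, of which 14 are cell types) are described by counts and medians. Genes named are Abcb11; the 12 protein-coding genes with the largest difference each way without overlap, in the same direction in all 3 numbers and at least 5 CPM; the 3 smallest p-values of each list described, or textbook members; genes high in 1 library; and genes called with the block or DESeq2. Some genes under this rule are not reported here. Members and lists were chosen with earlier results of these data known.

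Whether equal numbers pair samples was checked by correlating deviations from group means over 10277 genes. Same-numbered tumour and non-tumour libraries gave 0.465, 0.384 and 0.321, and others −0.405 to 0.0352. Deviations within a group cancel out, so positive values for equal numbers push the others down. The check also cannot tell a shared animal from another feature shared by equal numbers, such as the clock score. The alternative with a block treated the numbers as pairing, which the labels do not state.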

Additional observations from a re-analysis of the deposited data

How the results depend on the processing

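The count of 0 genes past the threshold stayed 0 under RLE and upper-quartile scaling, TMM without mitochondrially encoded genes, a filter of 1 CPM in 3 libraries, limma-voom, the 6 libraries alone, the clock score as a covariate, and the replicate block in the 6 libraries alone. It was 27 in DESeq2 and 2 with the replicate block in the fit of 14 libraries. Leaving out single libraries gave 0 to 42 genes. Leaving out both libraries of number 1 gave 20, or 46 with the replicate block. Without a low-count filter (28842 genes) it was 338, but there the estimated prior degrees of freedom were infinite, against 6.11 in the reported fit. A gene's own spread between libraries is then not used: Psapl1, high in tumour 2 alone, had the smallest adjusted p, 6.74e-90. Those 338 calls are therefore not read as differences between the tissues, and no gene is described from them.

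Genes without overlap and at least 2-fold apart (867) numbered 844 to 863 under the other scalings, 2506 without a minimum fold, 325 at 4-fold and 577 with the filter of 1 CPM. They numbered 1026 to 1908 with single libraries left out. Genes high in 1 tumour library (7) became 13 at a ratio of 5 and 16 at 5 CPM.

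Directions turned in 4 named genes. Abcb11, at 0.01, was −0.0039 with upper-quartile scaling, −0.0089 without a filter, −0.0597 in limma-voom, −0.0476 with the clock score, −0.38 without number 1 and −0.31 with the replicate block as well. With single libraries left out, Abcb11 ran from −0.28 (tumour 1) to 0.37 (non-tumour 2), Acta2 from −0.37 (tumour 2) to 2.54 (tumour 1) and Actg2 from −2.73 (tumour 2) to 4.75 (tumour 1). Without both libraries of number 2, Acta2 was −0.72, Actg2 −2.27 and Clec4f, a Kupffer cell marker, 0.16. Over all alternatives the median of the lipogenesis list ran from 0.11 to 0.93 (0.47 with the replicate block in the fit of 14 libraries) and that of the urea cycle list from −1.48 to −0.45 (−0.92 with that block). Of the 45 list medians 10 changed sign in limma-voom and 4 to 9 with single libraries left out. Depth limits genes under about 1 CPM, such as 4 of the 11 adipocyte markers.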
